A study of Canis lupus familiaris with 12 samples.

Results

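RGS2, GNAI1 and GNG11 are 3 genes of heterotrimeric G protein signalling, taken here as all probes that the array's annotation names with one of those symbols. They cover 3 of the 4325 genes that a probe with a single symbol represents, and 8 of the 13056 probes on each array. RGS2 has 1 clone spotted 3 times, GNAI1 has 1 clone spotted once, and GNG11 has 1 clone spotted 4 times. The genes were proposed because of their ratios against the control, so those ratios are described below without a test.

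The cells were MDCK, a dog kidney epithelial line, in 4 forms: transfected with Snail, with Slug or with E47, and the MDCK-CMV control that was the partner on every array. Total RNA of a transfectant and of the control was compared by 2-colour hybridisation to a cDNA array of clones annotated with human genes. Each transfectant was represented by samples numbered 1 and 2, and each of these was hybridised on an array with the transfectant in Cy5 and on another with it in Cy3, giving 12 arrays. The labels do not say whether the numbered samples are separate clones, cultures or extractions, so the spread between them may be technical, and no array set control against control.

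A heterotrimeric G protein consists of an alpha subunit, which binds guanine nucleotides, and a paired beta and gamma subunit. An activated receptor makes the alpha subunit exchange GDP for GTP, after which alpha and the beta-gamma pair act on separate effectors until the alpha subunit hydrolyses its GTP. RGS proteins speed up that hydrolysis, and RGS2 is known for acting on the alpha subunits of the Gq class. GNAI1 is an inhibitory alpha subunit that lowers adenylyl cyclase activity, and GNG11 is a gamma subunit. The transfected genes encode transcription factors that repress CDH1, the gene of the epithelial adhesion protein E-cadherin.

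Ratios are log2 values, so 1 unit is a doubling. Which channel is the numerator is not given by the labels, and arrays of the same transfectant and dye correlated as low as r = -0.61. The arrays of Snail 2 and Slug 1 and the Cy5 array of E47 2 were multiplied by -1, as the choice of these genes prescribes, so that a positive value is read as higher in the transfectant. Every direction against the control below is therefore assumed, and the low CDH1 ratio is no finding. SNAI1, the gene of Snail, had the largest ratios in Snail (1.04 and 2.37), against 0.70 and 0.64 in Slug and 0.19 and 0.15 in E47 (0.32 and 0.15 with the rows described next moved back). TCF3, the gene of E47, did not single out the E47 arrays: its ratios were 0.82 and 0.60 in E47 (0.92 and 0.60 moved back) and 1.12 and 1.11 in Slug. SNAI2, the gene of Slug, is not analysed here.

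On 5 of the 12 arrays a stretch of consecutive rows held values that belong to other rows. The Cy3 array of Snail 2 (rows 1541 to 4400), the Cy5 array of Slug 1 (7921 to 10120), the Cy5 and Cy3 arrays of Slug 2 (6601 to 10230 and 2861 to 8800) and the Cy3 array of E47 1 (1 to 3740) were affected, together 12% of all values. Inside the stretches the correlation with the other arrays of the transfectant was -0.03 to 0.01, against 0.55 to 0.84 outside them. Blocks of 110 rows were moved to their best-matching place where it lay within the same stretch, and the correlation was then 0.52 to 0.87. The placement sought the highest correlation with the other arrays, so that rise was partly fixed in advance. A separate check used clones spotted at a place inside and a place outside the stretch of the same array: their spots correlated at -0.07 to 0.08 as deposited and at 0.81 to 0.92 after moving. The 8 probes of RGS2, GNAI1 and GNG11 were kept out of the search for stretches. All 12 values of GNAI1 were in register, 2 of the 32 RGS2 values were not, and 8 of the 48 GNG11 values were not. The deposited values are given first in what follows, and results on RGS2, GNAI1 and GNG11 that the stretches touch are also given with those rows moved back.

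**Figure D1:**
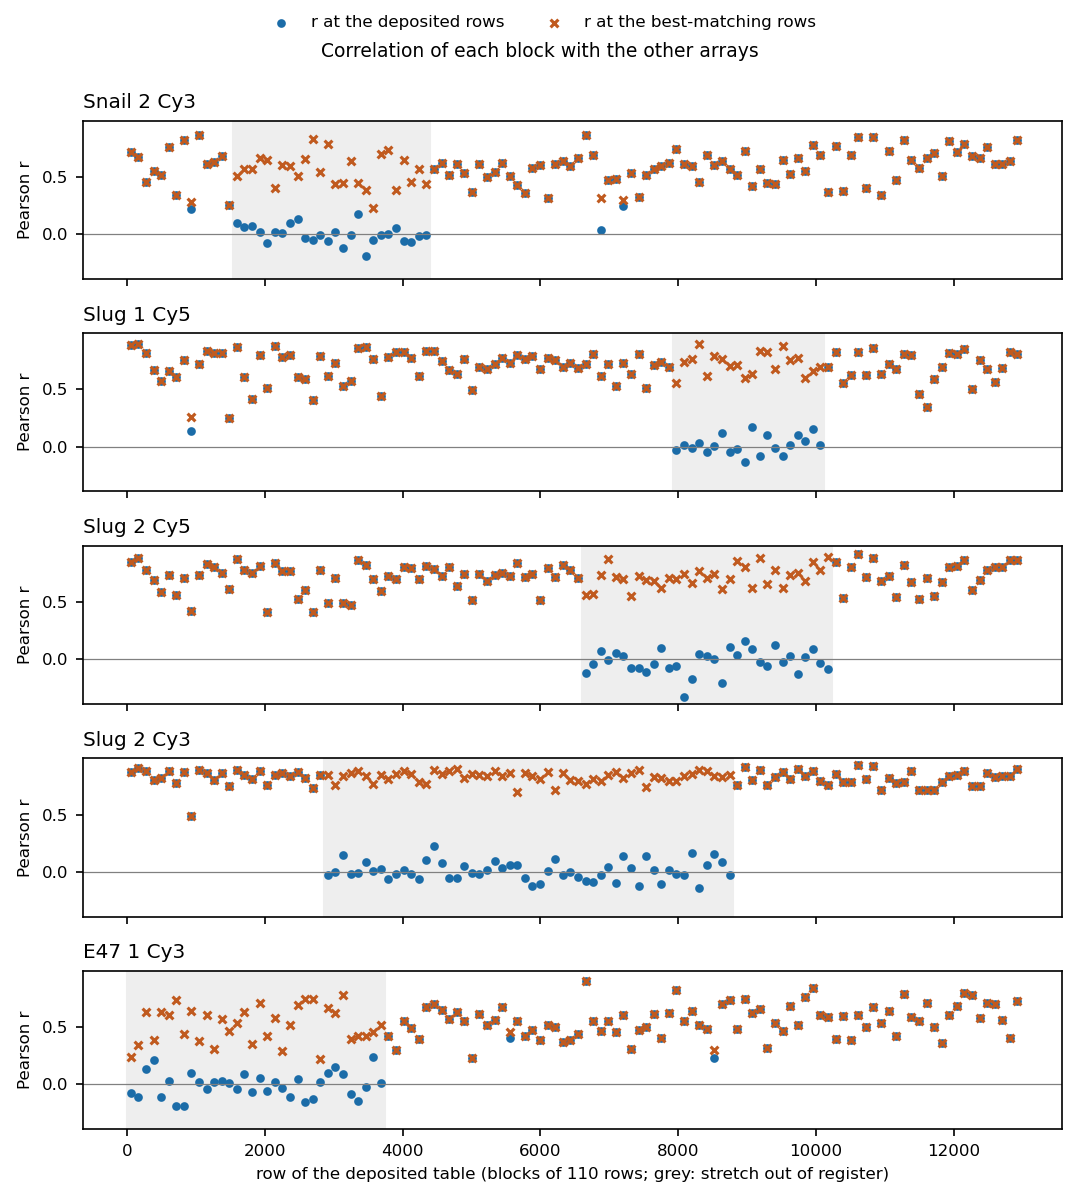
Pearson correlation of each block of 110 rows with the other arrays, along the rows of the deposited table, for the 5 affected arrays. Circles show the deposited place and crosses the best-matching place; in the grey stretches the circles lie near 0 while the crosses stay at the height of the rest of the array.

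RGS2 had the lowest ratios of the 3 genes, in all 3 transfectants. In Snail its array means were -3.26 and -3.38 for sample 1 and -3.32 and -3.20 for sample 2. In Slug they were -2.67 and -2.69 for sample 1 and -2.55 and -1.71 for sample 2. In E47 they were -3.86 and -2.60 for sample 1 and -3.81 and -3.76 for sample 2. All 12 array means lay below 0, and the -1.71 and -2.60 are the arrays with an out-of-register spot. On the Cy3 array of Slug 2 the second spot read -0.45 as deposited and -2.74 once moved back, beside -2.43 and -2.25 for the others. On the Cy3 array of E47 1 the first spot read 0.09 as deposited, its own value could not be placed, and the others read -3.82 and -4.06.

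As replicate means, RGS2 was -3.29 ± 0.04 in Snail, -2.40 ± 0.39 in Slug and -3.51 ± 0.40 in E47 (SD, n = 2 each). These are 9.78-fold, 5.29-fold and 11.4-fold lower than in the control. After moving rows back the means were -2.60 ± 0.12 in Slug and -3.84 ± 0.08 in E47, or 6.04-fold and 14.3-fold lower, while Snail held no such row. The value of Snail 2 rests on a single spot, since the other spots were empty on both of its arrays. RGS2 lay on the same side of 0 as the mean of 2 of the 3 CDH1 clones on 12 of 12 arrays. That count does not depend on how arrays are turned. With CDH1 below 0 on every turned array, the count restates that all 12 RGS2 means lay below 0. The count was reached by 3.03% of the 3536 genes with a value on every array. Moved back, it was again 12 of 12, as for 4.98% of 3574 genes. The CDH1 clones disagreed: as deposited, those 2 read -4.30 to -2.26 over the replicates, and the other, left out of that mean, read -0.14 to 0.31. Every later count of arrays by side of CDH1 uses the same 2 clones. The genes were chosen on these ratios, so nothing is read from this count, the later ones or their shares.

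GNAI1 had high ratios in E47, lower positive ones in Snail and ratios around 0 in Slug. Its single spot read 0.63 and 0.46 on the arrays of Snail 1 and 0.83 and 0.99 on those of Snail 2. In Slug it read 0.55 and -0.13 for sample 1 and -0.34 and 0.32 for sample 2. In E47 it read 1.91 and 2.13 for sample 1 and 1.98 and 2.84 for sample 2. The E47 arrays read 1.91 to 2.84, and those of Snail and Slug, which overlapped, -0.34 to 0.99. How many other genes part the arrays in this way was not counted. The arrays of a numbered sample are not separate replicates.

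The replicate means of GNAI1 were 0.73 ± 0.26 in Snail, 0.10 ± 0.16 in Slug and 2.21 ± 0.27 in E47 (SD, n = 2 each), or 1.65-fold, 1.07-fold and 4.64-fold higher than in the control. The Slug replicates were 0.21 and -0.01, so their mean was smaller than the SD between them. GNAI1 lay on the opposite side of 0 from CDH1 on 10 of 12 arrays, and the exceptions were Slug arrays; 10.9% of genes did so on at least 10.

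GNG11 had positive ratios in all 3 transfectants once its rows were in register. In Snail the mean of its 4 spots was 0.67 and 0.76 for sample 1 and 1.38 and -0.12 for sample 2. In Slug it was 0.70 and 1.33 for sample 1 and 1.47 and 1.65 for sample 2. In E47 it was 1.79 and -0.77 for sample 1 and 3.02 and 3.26 for sample 2. The only values below 0 came from the Cy3 arrays of Snail 2 and E47 1, on which all 4 spots were out of register. Moved back, those spots read 1.37, 0.60, 1.20 and 1.59 on the Snail 2 array, against -0.12, -0.80, 0.02 and 0.41 as deposited. On the E47 1 array they read 2.36, 1.19, 2.27 and 1.66 moved back, against -0.21, -1.56, -0.69 and -0.62 as deposited. All 8 moved spots lay above 0, while 6 of the 8 deposited values lay below it.

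As deposited, GNG11 averaged 0.67 ± 0.06 in Snail, 1.29 ± 0.39 in Slug and 1.83 ± 1.86 in E47 (SD, n = 2 each), or 1.59-fold, 2.44-fold and 3.54-fold higher than in the control. Moved back, it was 1.00 ± 0.40 in Snail and 2.48 ± 0.93 in E47, or 2.00-fold and 5.59-fold higher, and Slug held no such row. With those rows left out, Snail 2 and E47 1 rest on 1 array each and the means were 1.05 and 2.47. The E47 samples differed from each other: sample 2 read 3.14 and sample 1 read 1.83 with rows moved back. GNG11 lay opposite to CDH1 on 10 of 12 arrays as deposited, and on 12 of 12 with rows moved back, as did 3.58% of genes.

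**Figure D2:**
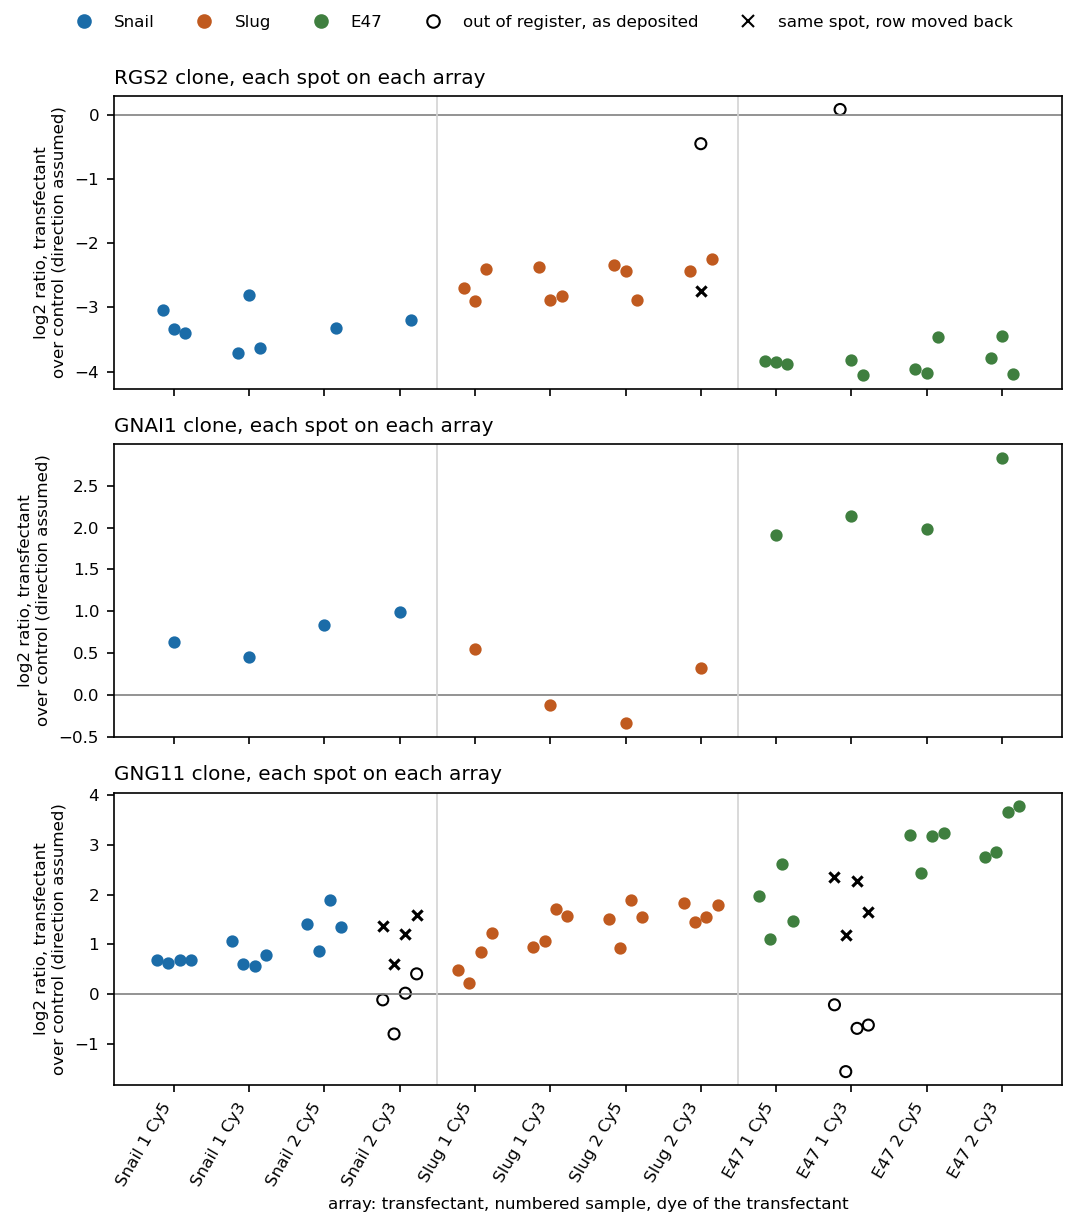
Log2 ratio of every spot of RGS2 (top), GNAI1 (middle) and GNG11 (bottom) on the 12 arrays, grouped by transfectant, with the direction assumed; each panel has its own scale. Open circles are out-of-register values as deposited and crosses the same spots after rows were moved back, where the crosses fall among the filled points of their transfectant.

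As context, 5 of the 9 gene-by-transfectant values had an adjusted p under 0.05 against the control in limma as deposited, and 8 of 9 with rows moved back. The same threshold was passed by 7.22% of genes in Snail, 21.8% in Slug and 5.3% in E47 as deposited, and by 18.5%, 41.5% and 13.6% with rows moved back. The genes were chosen on these ratios, so nothing is read from that count. In bulk RNA, fewer cells with a transcript and less transcript per cell cannot be told apart.

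The differences between transfectants are another contrast, and were tested with limma with Benjamini-Hochberg adjustment over all genes; the genes were nevertheless proposed with these results known. The control RNA was the partner on every array, so each difference compares ratios. GNAI1 was lower in Slug than in E47 by a log2 difference of -2.12 (95% confidence interval -2.62 to -1.62, adjusted p = 0.0144). On the Cy3-titled arrays alone that difference was -2.39 and did not pass (adjusted p = 0.0586). It was also lower in Snail than in E47, at -1.49 (-1.99 to -0.99, adjusted p = 0.024). That Snail minus E47 call held in 21 of the 26 alternatives that keep the directions, including all 9 with rows moved back. The same threshold was passed by 0.786% of genes for Slug minus E47 and by 2.57% for Snail minus E47. Snail minus Slug was 0.63 (0.13 to 1.13), which missed the threshold as deposited (adjusted p = 0.0951) and passed it with rows moved back elsewhere in the table (adjusted p = 0.0416), where 31.2% of genes passed, against 13.2% as deposited. The GNAI1 values themselves are identical in both, and the call was lost without sample 1 of Slug (adjusted p = 0.0896), sample 2 of Slug (0.215) or sample 2 of Snail (0.157). Left out in turn, sample 2 of E47, sample 1 of Snail or sample 2 of Snail ended the Snail minus E47 call as deposited (-1.30 with adjusted p = 0.144, -1.31 with 0.103 and -1.67 with 0.0592), and with rows moved back none of the 6 samples did.

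RGS2 passed in none of the 3 differences in limma as deposited, and in 2 of 3 at an unadjusted p. Snail minus Slug was -0.89 (-1.48 to -0.30, adjusted p = 0.0579), Slug minus E47 was 1.10 (0.51 to 1.69, adjusted p = 0.1), and Snail minus E47 was 0.22 (-0.37 to 0.81, adjusted p = 0.711). Without sample 1 of Slug, Snail minus Slug was -1.16, but Slug then rests on sample 2, whose Cy3 array held an out-of-register RGS2 spot. Once rows were moved back, RGS2 was lower in Snail than in Slug by -0.70 (-1.04 to -0.35, adjusted p = 0.00886). It was higher in Slug than in E47 by 1.25 (0.91 to 1.59, adjusted p = 0.00341). Snail minus E47 was then 0.55 (0.21 to 0.89, adjusted p = 0.0463), and with the rows left out instead it had an adjusted p of 0.0739. So the order with rows moved back was E47 lowest, then Snail, then Slug, and the call between E47 and Snail was lost when any 1 of the 6 samples was left out (adjusted p from 0.0622 to 0.194). Without sample 2 of Slug, Snail minus Slug was -0.61 and did not pass (adjusted p = 0.0837). With rows moved back, 12.6% of genes passed for Snail minus E47 and 10.5% for Slug minus E47.

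GNG11 also passed in none of the differences in limma as deposited, and in 0 of 3 at an unadjusted p. Snail minus Slug was -0.61 (-2.23 to 1.00), Snail minus E47 was -1.15 (-2.76 to 0.46) and Slug minus E47 was -0.54 (-2.15 to 1.07), with adjusted p-values of 0.593, 0.413 and 0.76. Without sample 1 of E47, which held the out-of-register array, Snail minus E47 was -2.47 and passed (adjusted p = 0.023). After rows were moved back, GNG11 was lower in Snail than in E47 by -1.48 (-2.39 to -0.58, adjusted p = 0.0446). Slug minus E47 was then -1.20 (-2.10 to -0.29, adjusted p = 0.0951), or -1.85 without sample 1 of E47 (adjusted p = 0.0321), and Snail minus Slug was -0.29 (-1.19 to 0.62, adjusted p = 0.61). Those intervals do not show that Snail and Slug act alike on GNG11. The Snail minus E47 call rests on few samples: it was lost without sample 1 or 2 of Slug (adjusted p = 0.0518 each), without sample 2 of E47 (-0.83, adjusted p = 0.193) and without sample 1 of Snail (-1.20, adjusted p = 0.121).

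All of these differences assume that the directions of both transfectants are right. Had the E47 arrays the opposite direction, GNAI1 would differ by 2.31 for Slug minus E47 and 2.94 for Snail minus E47 (adjusted p = 0.000538 and 0.000253). RGS2 would differ by -5.91 and -6.80, and GNG11 by 3.11 and 2.50. Had the Slug arrays the opposite direction, Snail minus Slug would be -5.69 for RGS2, 0.82 for GNAI1 and 1.96 for GNG11. With Snail turned, Snail minus Slug would be 5.69, -0.82 and -1.96.

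**Figure D3:**
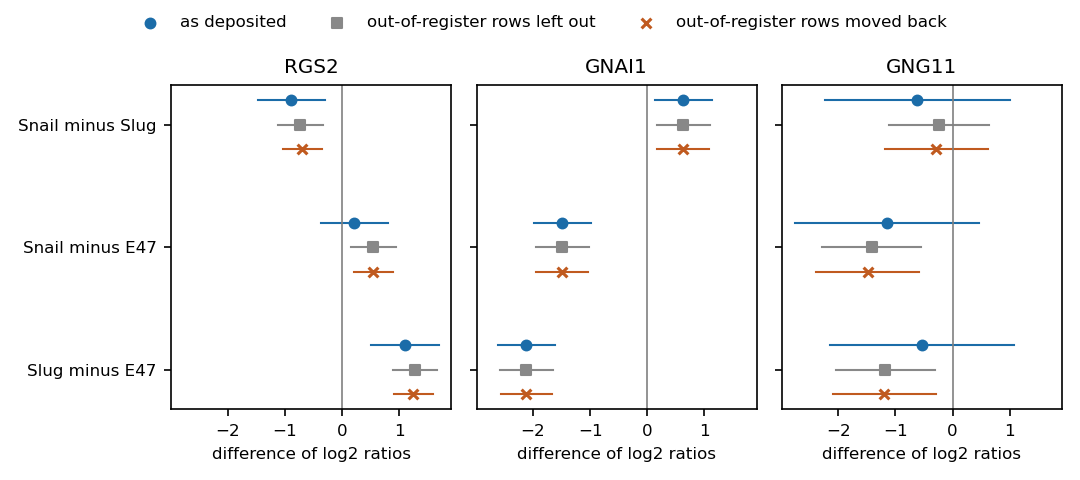
Difference of log2 ratios between transfectants for RGS2, GNAI1 and GNG11, with 95% confidence intervals from limma, as deposited, with out-of-register rows left out and with them moved back. The GNAI1 intervals for both differences against E47 stay below 0, and the GNG11 intervals narrow once the rows are handled.

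The other genes of the pathway were taken from lists by family: 72 on the array besides RGS2, GNAI1 and GNG11. In Snail, 60 could be tested and 2 were higher and 1 lower, at a median log2 ratio of -0.03, against -0.05 over all genes. In Slug, 9 of 69 were higher and 3 lower, at a median of 0.08, against 0.02 over all genes. In E47, 2 of 66 passed, both higher, at a median of 0.06, against 0.01 over all genes. With rows moved back, 5 were higher and 7 lower of 60 in Snail, 16 higher and 6 lower of 70 in Slug, and 8 of 67 in E47, all higher. Nothing is called particular to these lists; the shares of all genes that passed are those given above.

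The other RGS genes on the array stayed near 0. RGS1, RGS3, RGS9 and RGS13, other GTPase activators, ranged from -0.30 to -0.11 in Snail, from 0.16 to 0.23 in Slug and from -0.31 to 0.15 in E47, for the 3, 3 and 4 of them tested. With rows moved back they ranged from -0.30 to -0.11, from -0.24 to 0.28 and from -0.39 to 0.15. None passed in limma either way; at an unadjusted p, 0 did as deposited and 1 in each transfectant with rows moved back.

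Among the alpha subunits, GNAS, which stimulates adenylyl cyclase, was higher in Slug (0.75 and 0.80 in the samples, mean 0.77, adjusted p = 0.00409) and in E47 (0.50 and 0.63, mean 0.56, adjusted p = 0.0322). In Snail it was 0.09 and 0.07, and Snail minus Slug was -0.69 (adjusted p = 0.0329). GNAQ, the alpha subunit that activates phospholipase C beta, did not pass as deposited in Slug (0.81 and 0.09, adjusted p = 0.12) or in E47 (0.59 and 0.78, adjusted p = 0.0801). With rows moved back it was 0.81 and 0.99 there (mean 0.90, adjusted p = 0.000642), and in E47 the same values (mean 0.68) had an adjusted p of 0.00804. GNA13 and GNAZ, the second of them an inhibitory alpha subunit, did not pass in any transfectant, with ratios from -0.30 to 0.57 over both genes.

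Among the beta and gamma subunits, GNG12 was higher in Slug (0.48, adjusted p = 0.0391, and 0.67 moved back) and in E47 (0.78, adjusted p = 0.0189). It was 0.47 in Snail, with an adjusted p of 0.0776 as deposited and 0.0377 with rows moved back. GNB1, a beta subunit read by 1 spot, was 1.25 and -0.10 in the Slug samples as deposited, and 1.25 and 1.23 with rows moved back (mean 1.24, adjusted p = 0.000427). In E47 it was 0.78 and 0.81 (mean 0.79), with an adjusted p of 0.176 as deposited and 0.0116 with rows moved back. In Snail it was -0.76 and -0.06, and Snail minus Slug with rows moved back was -1.65 (adjusted p = 0.00129). GNG13, another gamma subunit, was lower in Slug (-0.63 and -0.36, adjusted p = 0.0377), while GNG2 and GNG3 passed nowhere.

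**Figure D4:**
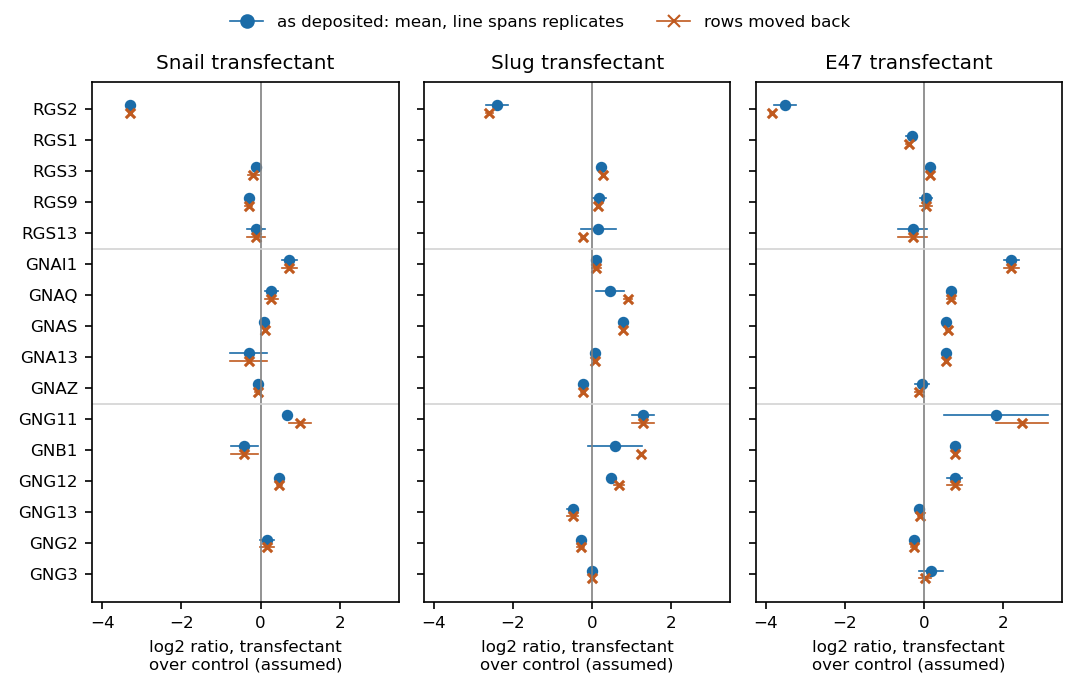
Mean log2 ratio against the control, with the direction assumed, of the RGS (top), alpha (middle) and beta or gamma (bottom) genes on the array in Snail, Slug and E47; lines join the 2 replicate values. RGS2, GNAI1 in E47 and GNG11 lie farther from 0 than the rest of their families, which is what they were chosen for. GNB1 and GNAQ in Slug move when rows are put back, and GNB1 (1.24) then lies close to GNG11 (1.29) in Slug.

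Among receptors and effectors, S1PR1, a receptor for sphingosine 1-phosphate that couples to inhibitory alpha subunits, was higher in Snail (0.64 and 1.35, mean 0.99, adjusted p = 0.0206). In Slug it read 0.65 and 0.38 as deposited, which did not pass, and 1.69 and 2.45 with rows moved back (mean 2.07, adjusted p = 0.000169). EDNRB, an endothelin receptor (0.62, adjusted p = 0.0255), CCR2, a chemokine receptor (0.43, adjusted p = 0.0427), and LPAR2, a lysophosphatidic acid receptor (0.59, adjusted p = 0.0271), were higher in Slug as deposited. LPAR2 did not pass with rows moved back (0.26, adjusted p = 0.145).

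The subunits of protein kinase A, the main cyclic AMP effector, did not move one way. PRKACB, a catalytic subunit, was higher in Snail (0.62, adjusted p = 0.0227) and Slug (0.44, adjusted p = 0.036). In E47 PRKACB was 0.48 (adjusted p = 0.0658), and 0.46 with rows moved back, which passed (adjusted p = 0.0356). PRKAR1A, a regulatory subunit, was higher in Slug (0.68, adjusted p = 0.0142, and 1.03 moved back), and Snail minus Slug was -0.91 (adjusted p = 0.0265, and -1.27 moved back). In E47 PRKAR1A was 0.46 (adjusted p = 0.109), and 0.52 with rows moved back, which passed (adjusted p = 0.0248). PRKAR2A, another regulatory subunit, was lower in Slug (-0.55, adjusted p = 0.0224). In Snail PRKAR2A was -0.42, with an adjusted p of 0.0964 as deposited and 0.0434 with rows moved back. PRKCA, a protein kinase C that responds to the phospholipase C pathway, was higher in Slug (0.54, adjusted p = 0.0244, and 0.68 moved back). All receptors and effectors named here as passing with deposited values, except LPAR2, also passed after rows were moved back.

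The genes with the array profiles most like each of the 3 were found by the smallest root mean square difference over the 12 deposited arrays among 3536 genes, as a description. For RGS2 they were FXYD3, IL1RN, SPP1, CDH1 and FGFBP1, with root mean square differences of 0.85 to 1.23 and r of 0.96 to 0.98. The same 5 stood in the same order with rows moved back. CDH1 here and among the markers below is the mean of all 3 clones. That mean includes the clone left out of the counts by side, which read -0.14 to 0.31 as deposited. The mean ratios of FXYD3, the nearest, were -2.99 in Snail, -3.48 in Slug and -2.89 in E47 as deposited, and -3.37, -3.48 and -3.30 moved back. For GNAI1 they were CDK14, DOCK4, SPRY2, ITGA7 and STX3 (0.53 to 0.58, r of 0.91 to 0.94), and with rows moved back STMN1 took the place of SPRY2. The mean ratios of CDK14 were 0.74 in Snail, 0.21 in Slug (-0.15 moved back) and 1.57 in E47. For GNG11 they were TWIST1, ANO6, ID3, LRP12 and STX3 as deposited (0.70 to 0.90, r of 0.87 to 0.91). After moving they were TMEFF1, ITGBL1, GABBR2, TWIST1 and ITM2B (0.45 to 0.60, r of 0.95 to 0.98), so only TWIST1 is in both. The arrays share the control RNA, and r over arrays that run both ways is dominated by their sign.

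Some cell type markers passed against the control in these cells and others did not, with the direction assumed. On the deposited values, CDH1, DSP and KRT7 were lower among the 7 epithelial markers tested in Snail and in E47, and CDH1, DSP and KRT19 were lower and JUP higher among the 8 tested in Slug. Of the mesenchymal markers, 7 were tested in Snail, 7 in Slug and 8 in E47. COL1A2 and FN1, mesenchymal matrix genes, were higher in all 3 transfectants, and CALD1 and SPARC in Snail and E47, while THY1 was lower in Snail. ACTA2 (-0.29 in Snail, 0.22 in Slug, 0.37 in E47) and CDH2 (0.08, 0.32 and 0.13) passed nowhere as deposited, nor did VIM (-0.28), tested in E47 alone. Among the epithelial markers, EPCAM, KRT8 and KRT18 passed nowhere as deposited, and KRT18 was -0.18, 0.14 and -0.12. By limma no leukocyte or endothelial marker passed in Snail or E47 as deposited; at an unadjusted p, 1 and 2 did in Snail and 1 and 1 in E47. In Slug, BTK was higher and ITGAX and PTPRC lower among 7 leukocyte markers, and EGFL7, ENG and TEK were higher among 9 endothelial markers, where 21.8% of all genes passed. With rows moved back, KRT19 and KRT8 were also lower in Snail and E47, JUP and PTPRC were lower in Snail, and EPCAM and KRT7 were lower in Slug. CALD1, CDH2, SPARC, LCK and LYN were then also higher in Slug, where 41.5% of all genes passed, and TEK did not pass. The part of these in the ratios of RGS2, GNAI1 and GNG11 was not tested.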

How the data were processed

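The deposited table holds a log2 ratio of the 2 channels for 13056 probes on 12 arrays. The base was checked on the numbers: below -0.5, 100% of deposited values were the log2 of a ratio with 3 decimals (tolerance 6e-05). Array medians were -0.06 to 0.06, and 10654 to 12982 probes had a value on each array. How the authors scanned, corrected and normalised the arrays is not stated in the labels or file headers, and signal over background cannot be read from ratios, so the number of arrays limits precision.

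Symbols came from the platform's annotation: 8047 probes have 1 symbol, 276 several and 4733 none. All 3 symbols occur in the dog RefSeq gene table, which was used for names alone. Arrays were turned as described, spots were averaged per clone and clones per gene, and the 2 arrays of a numbered sample gave 1 replicate, for which both were needed. limma 3.58.1 in R 4.3.3 fitted the 3 groups together, with 3 residual degrees of freedom, two-sided tests, Benjamini-Hochberg adjustment over all genes tested and a threshold of 0.05. Prior degrees of freedom were 4.85 as deposited and 5.54 with rows moved back. A block of 110 rows was called displaced where its correlation with the other arrays was over 0.4 at another place and at least 0.15 above that at its own, with 10 or more such blocks on an array. Where a block was not placed, its rows were left empty. This treatment was chosen after the data were seen. The limma program was tested on simulated data. The search for stretches was tested on a real array in register, the Cy3 array of E47 2, after part of it was rotated by whole blocks.

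RGS2, GNAI1 and GNG11 and the gene lists were chosen with earlier results of these data known. Text describes the clones of the 3 genes, list genes past the threshold, with at most 12 per comparison given values, their families by range, the 5 nearest genes of each, and CDH1, SNAI1 and TCF3. Clones are not named, and some list genes past the threshold are counted but not reported here by name. Sequences are not shown.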

Additional observations from a re-analysis of the deposited data

Results flagged for a closer look

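Among sets of 4 arrays, 31 could be tested for an array far from the others, and chance marks about 1 in 20. The sets overlap, because gene means contain their spots and GNAI1 has a single spot, so the marks are not separate tests and are not set against that rate. Dixon's ratio marked 4, all on arrays where a value was out of register: the RGS2 mean of -1.71 on the Cy3 array of Slug 2, the RGS2 mean of -2.60 and its first spot of 0.0854 on the Cy3 array of E47 1, and the second GNG11 spot of -0.80 on the Cy3 array of Snail 2. Differences between transfectants passed the test as deposited for GNAI1, at -1.49 for Snail minus E47 and -2.12 for Slug minus E47, and for the list genes GNAS, at -0.69, and PRKAR1A, at -0.91, both for Snail minus Slug.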

How the results depend on the processing

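Counts below are genes past an adjusted p of 0.05 by limma: all genes for Snail minus Slug, Snail minus E47 and Slug minus E47 (486, 93 and 30 as deposited), then G protein list genes against the control in Snail, Slug and E47 (3, 12 and 2). Leaving out-of-register rows out gave 966, 367 and 330, then 9, 21 and 8; moving them back gave 1173, 467 and 412, then 12, 22 and 8, with 8 of 9 values of RGS2, GNAI1 and GNG11 past the threshold in both cases and, moved back, GNG11 on the side of CDH1 on 0 arrays. These treatments, their combinations and the turned directions were chosen after seeing the data. The labels do not say that equal numbers pair the samples, and the deviations of equally numbered samples correlated at 0.02, 0.23 and -0.06 between transfectants as deposited and at 0.14, 0.26 and 0.09 with rows moved back, so the number was not taken as pairing. With the replicate block the counts were 519, 101 and 34, then 4, 12 and 2, and no difference of the 3 genes changed its call as deposited; with the block and rows moved back they were 1301, 557 and 493, then 13, 23 and 9, with 8 of 9, and GNG11 for Slug minus E47 then passed (adjusted p = 0.0116). Leaving out each sample in turn, as deposited and with rows moved back, gave 138 to 1253, 3 to 524 and 8 to 607 genes, 0 to 10, 4 to 29 and 0 to 13 list genes, and 4 to 8 of 9 values; at an unadjusted p the lowest list counts were 9 in Snail and 3 in E47. GNAI1 in Slug then ranged from -0.014 to 0.21, RGS2 for Snail minus E47 from -0.063 to 0.61, GNG11 for Snail minus E47 from -2.47 to 0.16 and GNG11 for Slug minus E47 from -1.85 to 0.78. Cy3-titled arrays alone gave 88, 1 and 4, then 0, 3 and 0 (9 and 6 at an unadjusted p in Snail and E47), and turned GNG11 for Slug minus E47 to 0.24 and RGS2 for Snail minus E47 to -0.12. Cy5-titled arrays alone gave 265 and 39 for the differences of Snail and 4 and 1 list genes in Slug and E47. Scaling every array to the same spread gave 310, 184 and 15, then 5, 2 and 4; with rows moved back it gave 903, 581 and 144, then 12 in Snail and 10 in E47, and GNG11 for Snail minus Slug was 0.010. Arrays as observations with a random block gave 887, 394 and 197, then 10 in Snail and 8 in E47. Each pair or transfectant fitted alone gave 15 for Slug minus E47, then 8, 3 and 5. Spots with a value on all 12 arrays gave 156 and 50 for the differences from E47 and 5 list genes in Snail, and the median over spots gave 0 in E47 (16 at an unadjusted p). Reading directions from the dyes left 0 calls in every comparison (79, 49 and 198 at an unadjusted p for the differences, and 1, 2 and 1 list genes) and 0 of 9, since arrays of opposite sign are then averaged. RGS2 was then 0.060 in Snail and 1.58 in E47, and 0.28, -1.52 and -1.79 for Snail minus Slug, Snail minus E47 and Slug minus E47. GNAI1 was -0.33 in Slug and -1.26 in E47, and 1.34 and 0.93 for Snail and Slug minus E47. GNG11 was -0.40 in Snail and -0.93 in E47, and 0.53 and 1.04 for Snail and Slug minus E47. With E47 turned, Snail minus E47 and Slug minus E47 had 357 and 985 genes past the threshold and were -6.80 and -5.91 for RGS2, 2.94 and 2.31 for GNAI1, and 2.50 and 3.11 for GNG11. Turning Slug gave 1.96 for GNG11 in Snail minus Slug, and turning Snail gave 5.69 for RGS2 and -0.82 for GNAI1. Outside the readings that change directions, the ratios of RGS2 and GNG11 against the control and of GNAI1 in Snail and E47 kept their sign in all 26 alternatives. The cause of the other changes was not tested. Ratios hold no signal over background, so dim spots cannot be set apart.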
